A study of Homo sapiens with 21 samples.

Results

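The genes described here are 10 that are known for their expression in pluripotent stem cells: POU5F1, NANOG, TDGF1, L1TD1, LIN28A, LIN28B, SALL4, ZFP42, DPPA4 and DNMT3B. They were chosen by name, as the 10 rows of the count table that carry these symbols, out of 61268 features in all. RNA-seq was done on H9 cells, a human embryonic stem cell line, that carried the doxycycline-inducible transgene TRE3G 2xFLAG-GSX2 WT. GSX2 is a homeodomain transcription factor of the developing lateral ganglionic eminence (LGE), the part of the ventral forebrain that gives rise to the striatum. Every group carried the transgene and went through the same LGE-like differentiation in Essential 6 medium, first with LDN193189, SB431542 and XAV939, next without XAV939, and last with IWP2 and Activin A. The 7 groups, each of 3 libraries, were cells at day 10 of differentiation (Day10), cells sampled 12, 24 and 48 h later without doxycycline (NoDox), and cells sampled at the same 3 times that had received 100 ng/mL doxycycline for 12 h from day 10 (Dox). The 24 h and 48 h Dox groups were therefore collected after the drug had been withdrawn. No group received doxycycline without the transgene, so effects of the drug and of GSX2 cannot be told apart, and the labels describe 1 line. Whether the 3 libraries of a group came from separate cultures is not stated, and p-values then describe only the spread among them, which may be technical.

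POU5F1 (also called OCT4) and NANOG are transcription factors at the centre of the network that keeps embryonic stem cells undifferentiated, and TDGF1 (CRIPTO) is a membrane co-receptor for the ligand NODAL. The other 7 genes act at several levels: LIN28A and LIN28B are RNA-binding proteins that block maturation of the let-7 microRNAs, L1TD1 is an RNA-binding protein derived from a LINE-1 retrotransposon, SALL4 and ZFP42 (REX1) are zinc finger proteins, DPPA4 is a nuclear protein that works with its relative DPPA2, and DNMT3B is a de novo DNA methyltransferase. Several of them, LIN28A, LIN28B, SALL4 and DNMT3B among them, are also known from early neural progenitors and are not restricted to the pluripotent state.

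Libraries held 14439089 to 33842591 counts, and values are given as CPM, the usual depth-scaled count, with library sizes adjusted by edgeR's TMM method, in which 3 reads amounted to 0.0874 to 0.211 CPM. The transgene stood at 876 ± 114 CPM (SD, n = 3) in Dox at 12 h, 19.5 ± 5.80 at 24 h and 0.934 ± 0.05 at 48 h, against 0.309 ± 0.0436 at day 10. The third Dox library at 12 h and the first day 10 library stood apart from the others of their groups, but the number of the 10 genes called in each comparison was the same without either. The labels call the cell type human embryonic stem cell, whereas at day 10 the summed level of 13 neural progenitor markers (such as SOX2 and PAX6) was 7460 to 7870 CPM and POU5F1 had at most 2 reads per library. Markers of other cell types were low in all groups: 9 mesendoderm markers summed to 4.48 to 9.34 CPM with FOXA2 at 0 in every library, 10 germ cell markers to 5.59 to 13.1 CPM with DAZ1 at 0, and 9 amnion and trophoblast markers to 1.01 to 3.03 CPM.

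The 10 genes fell into 3 ranges of expression. To compare genes, levels were divided by gene length (RPKM, the CPM per kilobase). At day 10 DPPA4 stood at 31.1 ± 0.598 RPKM (SD, n = 3), SALL4 at 27.1 ± 0.15, LIN28A at 20.8 ± 0.662, LIN28B at 17.2 ± 1.04 and DNMT3B at 12.8 ± 1.78. These 5 genes were at or above the 79.7th percentile of mean RPKM among the 19655 features that passed a filter on low counts. L1TD1 at 3.91 ± 0.198 RPKM (62.1st percentile) and ZFP42 at 2.26 ± 0.275 RPKM (34.6th percentile) were lower. The level of POU5F1 was 0.0266 RPKM and that of NANOG 0.00545 RPKM, and TDGF1 had no read at day 10. Thus 7 of the 10 genes passed the filter, and POU5F1, NANOG and TDGF1 did not. Between the highest and the lowest group mean, L1TD1 spanned 9.19-fold, ZFP42 3.11-fold, LIN28B 2.26-fold, LIN28A 1.94-fold, SALL4 1.88-fold, DNMT3B 1.81-fold and DPPA4 1.68-fold.

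**Figure D1:**
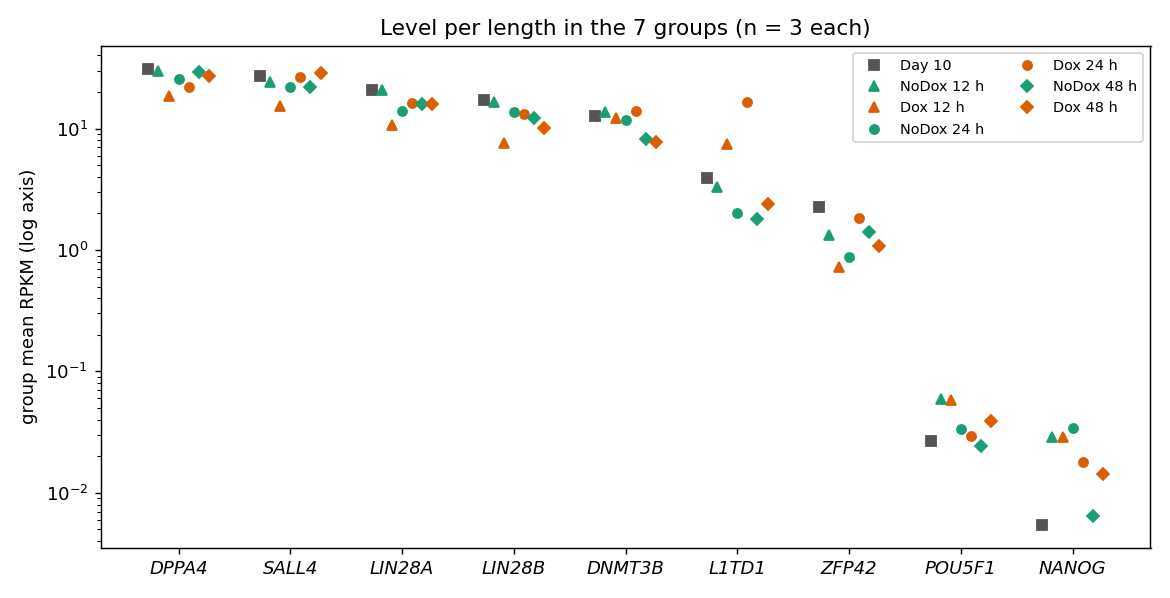
Mean level per gene length (RPKM, log axis) of 9 genes in the 7 groups, 1 point per group (mean of 3 libraries); TDGF1, with 1 read, is not drawn. The 7 genes that passed the filter lie well above POU5F1 and NANOG, and L1TD1 has the widest spread of group means, up to 16.7 RPKM in Dox at 24 h.

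The 3 genes nearest to the pluripotency core were at or near the limit of detection in every group, with and without doxycycline. POU5F1 (chromosome 6, 31164337 to 31180731, minus strand, hg38) had 0 to 7 reads per library and 50 reads over all 21 libraries, with at least 1 read in 19 of them. NANOG (chromosome 12, 7787794 to 7799146, plus strand) had 0 to 8 reads per library and 51 in all, with reads in 18 libraries. TDGF1 (chromosome 3, 46574534 to 46582457, plus strand) had 1 read, in the first Dox library at 24 h. No group stood apart for any of the 3 genes. Without the filter on low counts, 0 of 36 tests (3 genes in 12 comparisons) passed in edgeR's quasi-likelihood test. The lowest adjusted p in edgeR was 0.242. Before adjustment 1 of the 36 tests was below 0.05, that of NANOG in NoDox at 24 h against day 10, whose adjusted p in edgeR was 0.255. At these read numbers a difference between groups was not detectable, which does not show that there was none.

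Some features that carry the names of copies of these genes had reads too, and how alike their sequences are was not measured. The table listed POU5F1B with 352 reads over the 21 libraries, POU5F1P5 with 25 and POU5F1P6 with 24. It listed NANOGP5 with 49 reads, NANOGP8 with 28 and TDGF1P7 with 134. How reads that match several copies were counted is not given in the sources used here, so the few reads of POU5F1, NANOG and TDGF1 are uncertain. The exons of POU5F1 also share 248 bases with the opposite-strand gene TCF19, which had 9333 reads, and the strand setting of the counting is not given either.

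Among the 7 genes that passed, most were lower with Dox than without at 12 h and most were higher at 24 h. At 12 h, 5 fell (LIN28B, LIN28A, DPPA4, SALL4 and ZFP42) and L1TD1 rose, at an adjusted p below 0.05 (edgeR's quasi-likelihood test, adjusted over all 19655 features). Over all features tested, 19.8% were called higher and 19.9% lower in that comparison. At 24 h, 5 of the 7 genes were higher (L1TD1, ZFP42, SALL4, LIN28A and DNMT3B) and DPPA4 was lower, where 17% of all features were called higher and 16.9% lower. The count of higher genes at 24 h was 3 without the first NoDox library or without the third Dox library at that time, and 4 without any other single library. At 48 h SALL4 was higher and LIN28B lower, where 9.23% of all features were called higher and 8.94% lower. Without the second NoDox library at 48 h the counts there were 2 higher and 0 lower, and without the first Dox library 0 were lower. In bulk RNA, fewer cells that express a gene and less of its RNA per cell cannot be told apart. In the same 12 h comparison the summed neural progenitor markers were 3280 to 3630 CPM with Dox and 8130 to 8160 without, and their part in the results for the 7 genes was not tested.

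**Figure D2:**
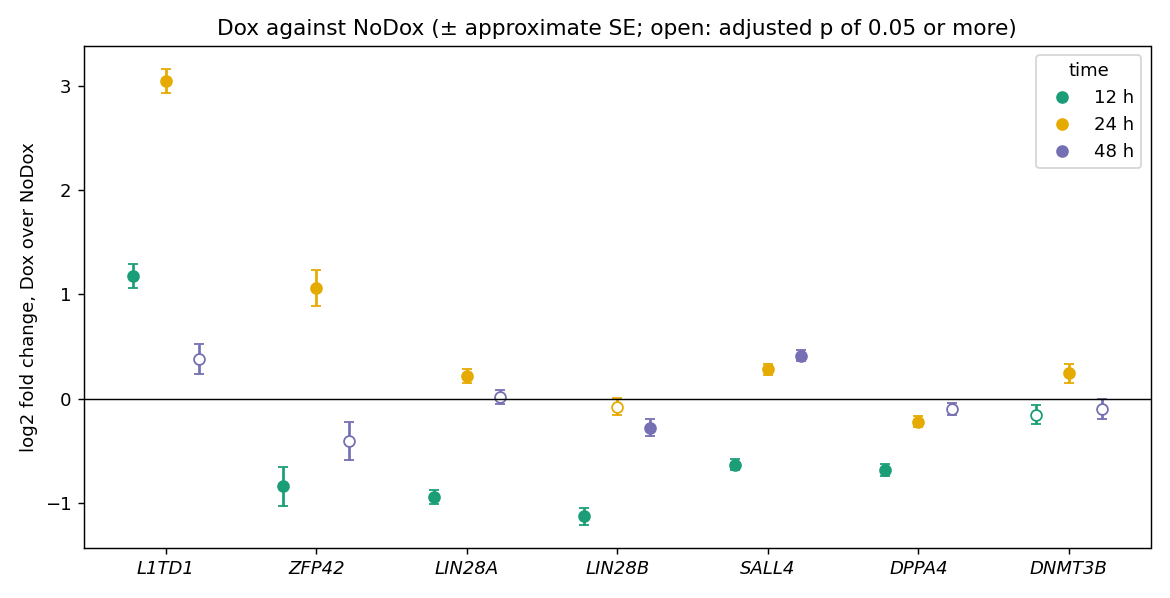
Difference of Dox from NoDox (log2 fold change, error bars are approximate standard errors, open points did not pass) for the 7 genes at 12, 24 and 48 h after day 10. L1TD1 is above 0 at each time and peaks at 3.05 at 24 h, whereas LIN28A, LIN28B, SALL4, DPPA4 and ZFP42 are below 0 at 12 h.

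L1TD1 showed the largest difference of the 7 genes, and the only rise among them at 12 h. The gene lies on chromosome 1 at 62194849 to 62212328, on the plus strand. The 250 bases before its start are shown in 5′ to 3′ direction because its level moved the most; they are from RefSeq (GRCh38.p14), chr1:62194599-62194848, plus strand, are 59.6% G or C and hold 12 CpG pairs:
L1TD1: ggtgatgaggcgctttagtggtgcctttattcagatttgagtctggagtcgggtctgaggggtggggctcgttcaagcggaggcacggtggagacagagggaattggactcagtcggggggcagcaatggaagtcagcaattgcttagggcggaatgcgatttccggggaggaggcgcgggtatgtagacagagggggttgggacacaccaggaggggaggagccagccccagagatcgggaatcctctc
These motifs were looked for on both strands and none lies in these 250 bases, so no letters are in capitals: TAATTA, a core that homeodomain factors can bind, ATGCNAAT, an octamer-type motif of the POU5F1 class, and ACAAAG or ACAATG, short cores of the SOX class. In the 50 bases after the start, CTTTGT, the reverse complement of ACAAAG, lies at positions 28 to 33. Over the 35116 promoters of 300 bases in the table, 4.84% hold TAATTA, 2.97% ATGCNAAT, 16.1% ACAAAG and 10.8% ACAATG. A match of letters is a description only.

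In the 3 day 10 libraries L1TD1 stood at 14.4, 14.7 and 15.8 CPM. Without doxycycline it was 11.2, 15.5 and 11.4 CPM at 12 h, 7.32, 7.60 and 8.36 at 24 h, and 6.00, 7.97 and 6.85 at 48 h. With doxycycline it was 26.2, 26.5 and 33.8 CPM at 12 h, 60.1, 66.6 and 64.8 at 24 h, and 8.33, 8.92 and 9.94 at 48 h. All Dox libraries were above all NoDox libraries of the same time, and the 24 h Dox libraries were above every other library. The log2 difference of Dox from NoDox was 1.17 ± 0.11 at 12 h (standard error, adjusted p = 1.25e-09) and 3.05 ± 0.12 at 24 h (adjusted p = 2.54e-18). At 48 h it was 0.38 ± 0.14 with an adjusted p of 0.0588, which did not pass. It passed without the second NoDox library at that time (adjusted p = 0.0418) and in 5 other fits. L1TD1 was thus highest at the first time sampled after doxycycline had been withdrawn, and was below its day 10 level at 48 h.

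In the order of group means, Dox at 24 h (63.8 ± 3.35 CPM) was followed by Dox at 12 h (28.8 ± 4.34), day 10 (15 ± 0.759) and NoDox at 12 h (12.7 ± 2.45). Dox at 48 h (9.06 ± 0.815), NoDox at 24 h (7.76 ± 0.538) and NoDox at 48 h (6.94 ± 0.986) came last. The ranges of day 10 and NoDox at 12 h overlapped, as did those of neighbours among the last 3 groups. A row named Y_RNA shares 110 exon bases on the same strand with L1TD1 and had 44 reads over all libraries, against 9722 for L1TD1.

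**Figure D3:**
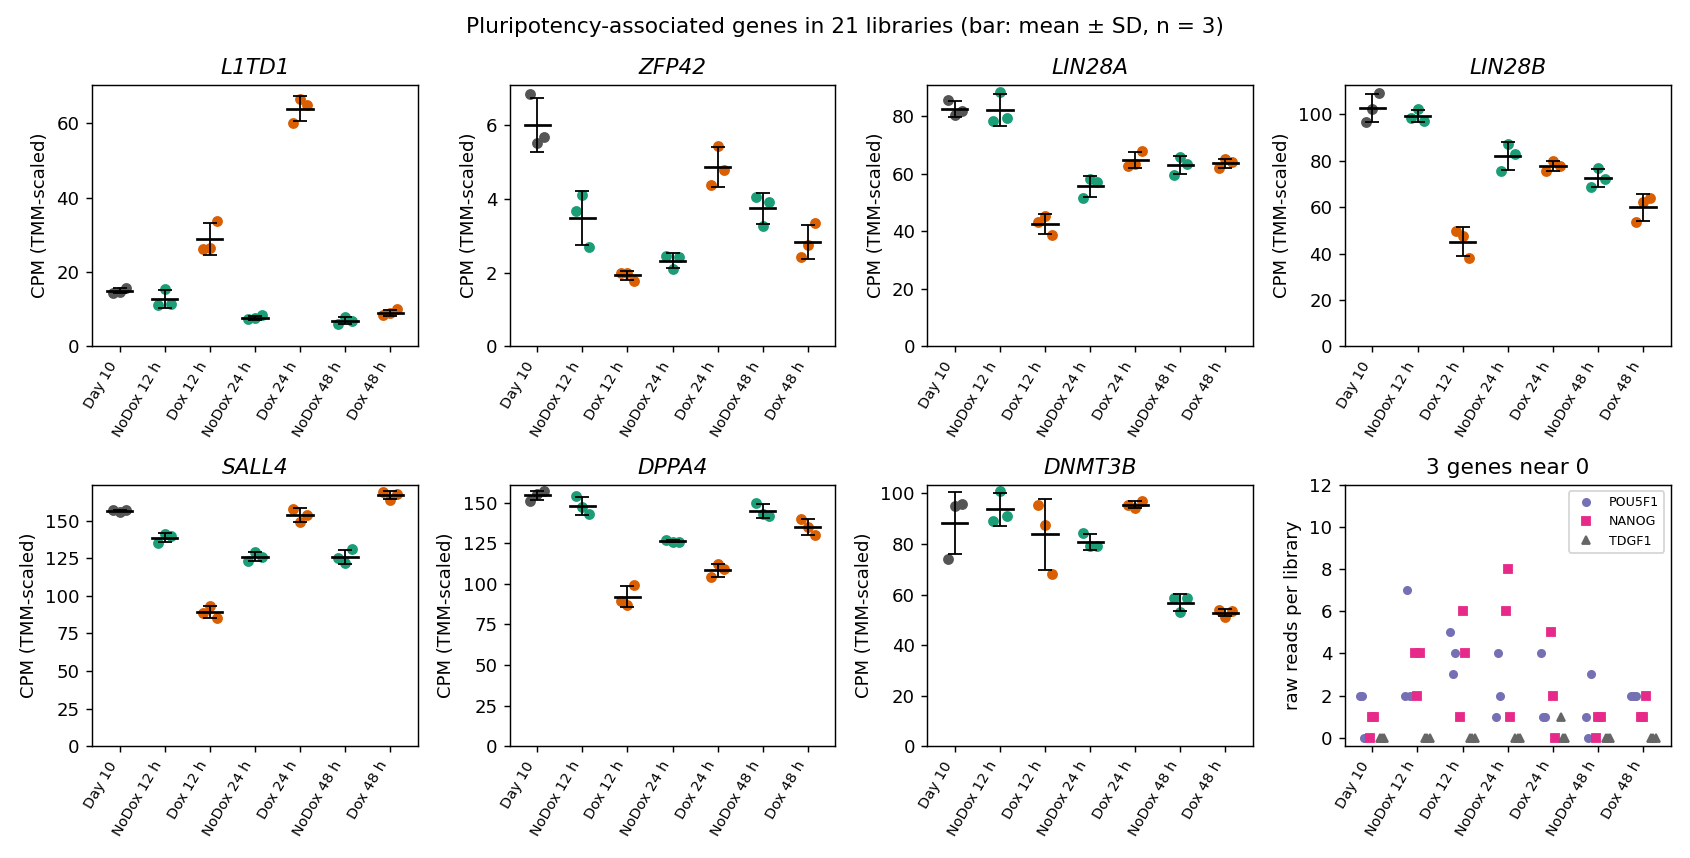
Level (CPM, each axis from 0) of the 7 genes that passed the filter in each of the 21 libraries, and raw reads of POU5F1, NANOG and TDGF1 in the last panel; points are libraries and bars are means ± SD of 3. L1TD1 is highest in Dox at 24 h, and LIN28A, LIN28B, SALL4, DPPA4 and ZFP42 are lowest in Dox at 12 h.

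LIN28A and LIN28B, the pair that keeps let-7 microRNAs from maturing, both fell with Dox at 12 h. LIN28A (chromosome 1, 26410817 to 26429728, plus strand) was 85.5, 80.4 and 81.7 CPM at day 10. At 12 h it was 78.5, 88.4 and 79.3 CPM without doxycycline and 43.3, 45.5 and 38.8 with it, so that the groups did not overlap. LIN28A fell by 0.94 ± 0.07 on the log2 scale at 12 h (adjusted p = 2.73e-12). At 24 h it was 51.6, 58.3 and 57.1 CPM without doxycycline and 62.7, 63.5 and 67.8 with it. The groups did not overlap there either, in the opposite direction. The log2 difference was 0.22 ± 0.07 (adjusted p = 0.0124), and it did not pass without the first NoDox library (adjusted p = 0.107) or the third Dox library (adjusted p = 0.0756). At 48 h LIN28A was 59.6, 66.0 and 63.3 CPM without and 62.0, 65.1 and 64.0 CPM with doxycycline. These groups overlapped, with a log2 difference of 0.02 ± 0.07 (adjusted p = 0.906).

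LIN28B (chromosome 6, 104936616 to 105083332, plus strand) was 96.7, 102 and 109 CPM at day 10. At 12 h it was 98.2, 102 and 97.0 CPM without doxycycline and 49.8, 47.7 and 37.9 with it. No Dox library reached the level of a NoDox library, and LIN28B fell by 1.13 ± 0.08 on the log2 scale (adjusted p = 2.64e-12). At 24 h it was 75.7, 87.2 and 83.0 CPM without and 75.3, 80.0 and 77.7 CPM with doxycycline. The groups overlapped, with a difference of -0.08 ± 0.08 (adjusted p = 0.499). At 48 h it was 68.7, 76.8 and 72.0 CPM without and 53.4, 62.0 and 64.1 CPM with doxycycline. The groups did not overlap and the difference was -0.28 ± 0.08 (adjusted p = 0.0178). It did not pass without the second NoDox library (adjusted p = 0.103) or the first Dox library at 48 h (adjusted p = 0.134). Exons of LIN28B share 181 bases with LIN28B-AS1 on the opposite strand, which had 795 reads over all libraries against 35140 for LIN28B.

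Both genes were highest at day 10, where their ranges overlapped those of NoDox at 12 h, and lowest in Dox at 12 h. LIN28A means ran from 82.5 ± 2.63 CPM at day 10 to 42.6 ± 3.40 in Dox at 12 h, with Dox at 24 h, Dox at 48 h and NoDox at 48 h overlapping in the middle. LIN28B means ran from 102 ± 6.19 CPM at day 10 to 45.1 ± 6.34 in Dox at 12 h, with NoDox at 24 h, Dox at 24 h and NoDox at 48 h overlapping in the middle.

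Of 19 other genes around LIN28 and let-7 (let-7 hosts, processing factors and known let-7 targets), 18 were tested. At 12 h 1 was higher and 11 were lower with Dox, with a median log2 difference of -0.29 against 0.0083 over all features. The shares of all features called were 19.8% higher and 19.9% lower. The let-7 target HMGA2, an architectural chromatin protein, fell by 1.15 ± 0.06 (adjusted p = 1.2e-15). The transcription factor genes MYC and MYCN, also let-7 targets, fell by 2.38 ± 0.16 (adjusted p = 3.93e-13) and by 1.06 ± 0.08 (adjusted p = 1.77e-11). TRIM71, itself a let-7 target in stem cells and early progenitors, fell by 0.45 ± 0.09 (adjusted p = 0.000287). At 24 h 5 were higher and 3 lower, with a median of 0.0075, where 17% of all features were called higher and 16.9% lower. MYCN was then higher by 1.32 ± 0.08 (adjusted p = 8.95e-14) and TRIM71 by 0.58 ± 0.09 (adjusted p = 1.15e-05), whereas HMGA2 was still lower, by -0.37 ± 0.06 (adjusted p = 8.47e-06). Against day 10, TRIM71 at 24 h was at 0.045 with Dox (adjusted p = 0.734) and at -0.54 without (adjusted p = 0.000167). At 48 h 4 of the 18 were higher and 2 lower with Dox than without, where 9.23% of all features were called higher and 8.94% lower. Mature let-7 was not measured in these poly(A) RNA libraries.

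SALL4, a zinc finger transcription factor of stem cells and embryonic progenitors, fell with Dox at 12 h and was above NoDox at 24 h and 48 h. It lies on chromosome 20 at 51782331 to 51802521, on the minus strand, and stood at 157, 156 and 157 CPM at day 10. At 12 h SALL4 was 135, 141 and 140 CPM without doxycycline and 88.8, 93.1 and 85.1 with it. The Dox libraries were all lower, by a log2 difference of -0.64 ± 0.05 (adjusted p = 6.3e-11). At 24 h SALL4 was 123, 129 and 126 CPM without and 158, 149 and 154 CPM with doxycycline, a difference of 0.28 ± 0.05 (adjusted p = 8.56e-05). At 48 h it was 125, 122 and 131 CPM without and 169, 164 and 168 CPM with doxycycline, a difference of 0.41 ± 0.05 (adjusted p = 2.11e-06). At both later times every Dox library was above every NoDox library. Dox at 48 h was the highest group (167 ± 2.90 CPM), day 10 (157 ± 0.868) and Dox at 24 h (154 ± 4.49) overlapped below it, and Dox at 12 h (89.0 ± 4.02) was the lowest. The difference of Dox at 48 h from day 10 did not pass (0.09 ± 0.05, adjusted p = 0.136). It turned to -0.063 when libraries were scaled by their totals only.

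The 3 other SALL genes, which encode related zinc finger proteins, all fell with Dox at 12 h, where 19.9% of all features were called lower. SALL3 fell by 1.29 ± 0.11 (adjusted p = 2e-10), SALL1 by 1.07 ± 0.08 (adjusted p = 1.15e-12) and SALL2 by 0.45 ± 0.06 (adjusted p = 4.19e-07), on the log2 scale. At 24 h SALL2 was higher by 0.57 ± 0.06 (adjusted p = 8.28e-09), while SALL3 and SALL1 were still lower, at -0.93 ± 0.11 (adjusted p = 9.88e-08) and -0.43 ± 0.07 (adjusted p = 2.73e-05). Against day 10, SALL2 at 24 h was at 0.072 with Dox (adjusted p = 0.369) and at -0.50 without (adjusted p = 7.98e-07). At 48 h SALL2 was higher with Dox than without by 0.18 ± 0.06 (adjusted p = 0.0374), and SALL1 and SALL3 did not pass. Both 48 h groups were below day 10 for SALL2, at -0.26 with and -0.43 without doxycycline.

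ZFP42, a zinc finger gene used as a marker of undifferentiated stem cells, changed sign between the first and the second time point. It lies on chromosome 4 at 187995771 to 188005046, on the plus strand, and had 1606 reads over all libraries, the fewest of the 7 genes. At day 10 it was 6.83, 5.50 and 5.66 CPM. At 12 h ZFP42 was 3.67, 4.11 and 2.68 CPM without doxycycline and 2.00, 2.00 and 1.78 with it, a log2 difference of -0.84 ± 0.18 (adjusted p = 0.000488). At 24 h it was 2.45, 2.10 and 2.42 CPM without and 4.37, 5.44 and 4.79 CPM with doxycycline, a difference of 1.06 ± 0.17 (adjusted p = 1.06e-05). The groups did not overlap at either time. At 48 h it was 4.04, 3.27 and 3.92 CPM without and 2.41, 2.76 and 3.33 CPM with doxycycline, a difference of -0.40 ± 0.18 that did not pass (adjusted p = 0.129). Day 10 was the highest group (6.00 ± 0.728 CPM), Dox at 24 h (4.87 ± 0.539) came next, and Dox at 12 h (1.93 ± 0.126) was the lowest. NoDox at 48 h, NoDox at 12 h, Dox at 48 h and NoDox at 24 h overlapped from neighbour to neighbour between 3.74 ± 0.414 and 2.32 ± 0.194 CPM.

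DPPA4, a chromatin-associated protein of pluripotent and early germ cells, had the highest level per length of the 10 genes at day 10 and was lower with Dox at 12 h and 24 h. It lies on chromosome 3 at 109326144 to 109337546, on the minus strand. The 250 bases before its start are shown because they hold the homeodomain core TAATTA, given in capitals. They are from RefSeq (GRCh38.p14), chr3:109337547-109337796, minus strand, with 43.2% G or C and 3 CpG pairs:
DPPA4: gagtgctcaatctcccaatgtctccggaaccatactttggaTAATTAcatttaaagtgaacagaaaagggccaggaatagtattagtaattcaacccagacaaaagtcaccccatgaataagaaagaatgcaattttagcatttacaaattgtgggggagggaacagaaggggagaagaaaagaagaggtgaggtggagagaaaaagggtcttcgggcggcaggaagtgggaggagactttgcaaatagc
The match lies at positions -209 to -204 from the start, and DPPA4 was the only one of the 6 genes with a promoter entry (L1TD1, NANOG, ZFP42, DNMT3B, LIN28B and DPPA4) that holds these letters in its 300 bases. Over the 35116 promoters, 4.84% hold TAATTA. Binding of GSX2 was not tested, and the match is a description only. Of the SOX-class cores, ACAATG matched at -112 to -107 in NANOG and at -140 to -135 of one LIN28B start, and ACAAAG at -54 to -49 of the other LIN28B start and at 15 to 20 in DNMT3B. ZFP42 held CTTTGT at 8 to 13. The RefSeq starts of L1TD1, ZFP42 and DPPA4 are the gene starts of the count table, whereas that of NANOG lies 1608 bases inside it, that of DNMT3B 17467 bases, and those of LIN28B 4349 and 20491 bases. No entry was matched for POU5F1, LIN28A, SALL4 and TDGF1.

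At day 10 DPPA4 was 151, 155 and 157 CPM. At 12 h it was 154, 147 and 143 CPM without doxycycline and 89.4, 87.1 and 99.5 with it, a log2 difference of -0.69 ± 0.06 (adjusted p = 5.21e-11). At 24 h it was 127, 126 and 126 CPM without and 104, 112 and 109 CPM with doxycycline, a difference of -0.22 ± 0.06 (adjusted p = 0.00289). All Dox libraries were below all NoDox libraries at these times. At 48 h it was 150, 143 and 142 CPM without and 140, 135 and 130 CPM with doxycycline, a difference of -0.10 ± 0.06 that did not pass (adjusted p = 0.221). Day 10 (155 ± 2.97 CPM), NoDox at 12 h (148 ± 5.60) and NoDox at 48 h (145 ± 4.30) overlapped at the top, and Dox at 12 h (92.0 ± 6.58) was the lowest group. DPPA2, the partner of DPPA4, had 865 reads over all libraries. At 12 h DPPA2 was higher with Dox than without by 1.54 ± 0.27 (adjusted p = 3.64e-05). Against day 10, it was at 0.125 in Dox at 12 h (adjusted p = 0.688) and at -1.42 in NoDox at 12 h (adjusted p = 0.000319). At 24 h the DPPA2 difference of Dox from NoDox was -0.63 ± 0.26 (adjusted p = 0.058).

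DNMT3B, which sets new DNA methylation marks in the early embryo, did not pass the test with doxycycline at 12 h or 48 h. It lies on chromosome 20 at 32762385 to 32809359, on the plus strand, and was 74.2, 95.2 and 95.7 CPM at day 10. At 12 h DNMT3B was 89.0, 101 and 91.0 CPM without and 95.6, 87.6 and 68.3 CPM with doxycycline. The groups overlapped and the log2 difference was -0.16 ± 0.09 (adjusted p = 0.189). It passed without the first Dox library at 12 h (-0.27, adjusted p = 0.0215) and turned to 0.02 when libraries were scaled by their totals only. At 24 h it was 84.3, 79.1 and 79.1 CPM without and 95.5, 94.4 and 96.9 CPM with doxycycline, a difference of 0.24 ± 0.09 (adjusted p = 0.045). The 24 h groups did not overlap, but the call was lost without any single one of the 6 libraries, with library totals (adjusted p = 0.0824), in DESeq2 (0.0505) and in limma (0.0584). At 48 h it was 58.6, 53.0 and 58.7 CPM without and 53.9, 51.3 and 53.5 CPM with doxycycline, overlapping, with a difference of -0.10 ± 0.10 (adjusted p = 0.51). The 2 groups at 48 h (56.8 ± 3.27 and 52.9 ± 1.41 CPM) were below the 5 others, whose ranges overlapped from neighbour to neighbour between 95.6 ± 1.26 and 80.8 ± 3.04 CPM.

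Of 14 other genes of DNA methylation and demethylation, 13 were tested, with 3 higher and 4 lower at 12 h, 2 higher and 6 lower at 24 h, and 2 higher and 1 lower at 48 h. The shares of all features called were 19.8% higher and 19.9% lower at 12 h, 17% and 16.9% at 24 h, and 9.23% and 8.94% at 48 h. The list's median log2 differences were -0.12, -0.13 and -0.084. At 12 h TET1, an enzyme that oxidises 5-methylcytosine, was lower with Dox than without by 0.87 ± 0.11 (adjusted p = 2.44e-06). Against day 10, TET1 at 12 h was at -0.39 with Dox (adjusted p = 0.0069) and at 0.47 without (adjusted p = 0.00276). TET3, of the same family, was higher with Dox than without by 0.71 ± 0.13 at 12 h (adjusted p = 0.000104). UHRF1, which recruits the maintenance methyltransferase to replicated DNA, was lower with Dox than without by 0.59 ± 0.09 at 12 h (adjusted p = 4.4e-06). It was higher by 0.35 ± 0.09 at 24 h (adjusted p = 0.00245) and lower by 0.62 ± 0.10 at 48 h (adjusted p = 4.96e-05). Against day 10, UHRF1 at 12 h was at 0.0077 with Dox (adjusted p = 0.953) and at 0.59 without (adjusted p = 9.68e-06). At 24 h with Dox it was at 0.10 against day 10 (adjusted p = 0.395). DNMT3A, the other de novo enzyme, did not pass at any of the 3 times.

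The change of the Dox effect from 12 h to 24 h was tested as an interaction, and it was upward for all 7 genes that passed the filter. Over all features 16.1% were called with an upward and 14.8% with a downward change. Of the 13 neural progenitor markers, 11 were called with an upward and 0 with a downward change. Their median change was 1.22 on the log2 scale, against 1.05 for the 7 genes, so an upward change was not particular to these genes. The change was 1.90 ± 0.25 for ZFP42 (log2, adjusted p = 6.79e-07), 1.87 ± 0.16 for L1TD1 (adjusted p = 2.63e-10) and 1.16 ± 0.10 for LIN28A (adjusted p = 1.1e-10). It was 1.05 ± 0.11 for LIN28B (adjusted p = 2.2e-08), 0.92 ± 0.07 for SALL4 (adjusted p = 7.47e-11) and 0.47 ± 0.08 for DPPA4 (adjusted p = 3.87e-05). For DNMT3B it was 0.40 ± 0.13 (adjusted p = 0.0219), which did not pass without the second NoDox library at 12 h (adjusted p = 0.0675) or with scaling by library totals (adjusted p = 0.27). From 24 h to 48 h L1TD1 and ZFP42 changed downward, by -2.67 ± 0.18 (adjusted p = 9.33e-12) and -1.46 ± 0.25 (adjusted p = 6.19e-05), where 12.7% of all features were called upward and 13.1% downward. The other 5 did not pass there. Between 12 h and 48 h the effect on SALL4, LIN28A, LIN28B and DPPA4 changed upward and that on L1TD1 downward, where 17.7% of all features were called upward and 16.7% downward. The SALL4 change was 1.05 ± 0.08 (adjusted p = 4.99e-12) and that of L1TD1 was -0.79 ± 0.18 (adjusted p = 0.00104).

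Without doxycycline, 6 of the 7 genes had fallen from their day 10 level at 24 h and 6 at 48 h. These comparisons share the day 10 libraries with one another and the NoDox libraries with those above. At 12 h ZFP42 was lower than at day 10 by -0.77 ± 0.16 (log2, adjusted p = 0.000609) and SALL4 by -0.18 ± 0.05 (adjusted p = 0.0104), where 15.5% of all features were called higher and 16.3% lower. The SALL4 call was lost without the first NoDox library at 12 h (adjusted p = 0.0509) and without the filter (adjusted p = 0.109). At 24 h ZFP42 was lower by -1.35 ± 0.17 (adjusted p = 1.61e-06), L1TD1 by -0.96 ± 0.12 (adjusted p = 2.74e-06) and LIN28A by -0.57 ± 0.07 (adjusted p = 7.25e-07). LIN28B, SALL4 and DPPA4 were lower by smaller amounts (-0.32, -0.31 and -0.29), DNMT3B did not pass, and 8.84% of all features were called higher and 8.47% lower. At 48 h L1TD1 was lower by -1.11 ± 0.13 (adjusted p = 1.11e-07), ZFP42 by -0.67 ± 0.16 (adjusted p = 0.00174), DNMT3B by -0.64 ± 0.10 (adjusted p = 6.51e-06) and LIN28B by -0.50 ± 0.08 (adjusted p = 1.28e-05). LIN28A and SALL4 were lower by -0.39 and -0.32, DPPA4 did not pass (-0.09 ± 0.06, adjusted p = 0.188), and 21.4% of all features were called higher and 20.2% lower.

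Set against the same day 10 libraries, the Dox groups at 12 h had 1 gene higher and 5 lower, where 24.5% of all features were called higher and 24% lower. L1TD1 was higher by 0.94 ± 0.11 (adjusted p = 6.85e-08). ZFP42 was lower by -1.61 ± 0.18, LIN28B by -1.18 ± 0.08, LIN28A by -0.95 ± 0.07, SALL4 by -0.81 ± 0.05 and DPPA4 by -0.75 ± 0.06, all with adjusted p at or below 1.06e-08. At 24 h L1TD1 was higher by 2.09 ± 0.11 (adjusted p = 5.33e-15), and DPPA4, LIN28B and LIN28A were lower by -0.51, -0.40 and -0.35, where 18.4% of all features were called higher and 19% lower. SALL4 (-0.03, adjusted p = 0.715), DNMT3B (0.11, adjusted p = 0.383) and ZFP42 (-0.29, adjusted p = 0.153) did not pass. At 48 h 6 of the 7 genes were lower than at day 10, where 28.2% of all features were called higher and 27% lower. The largest of these differences were ZFP42 at -1.07 ± 0.17 (adjusted p = 6.81e-06), LIN28B at -0.78 ± 0.08 (adjusted p = 4.94e-09), DNMT3B at -0.75 ± 0.10 (adjusted p = 3.71e-07) and L1TD1 at -0.73 ± 0.13 (adjusted p = 2.07e-05). SALL4 at 0.09 ± 0.05 (adjusted p = 0.136) did not pass.

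Among 32 other genes associated with pluripotency, 18 passed the filter. At 12 h 2 of these were higher and 7 lower with Dox (median -0.15), at 24 h 8 were higher and 2 lower (median 0.21), and at 48 h 3 were higher and 3 lower (median -0.17). The medians over all features were 0.0083, -0.0037 and 0.0061. Of all features, 19.8%, 17% and 9.23% were called higher and 19.9%, 16.9% and 8.94% lower at the 3 times. NR6A1, a nuclear receptor of embryonic progenitors, fell by 0.58 ± 0.07 at 12 h (adjusted p = 2.66e-07). VRTN was higher by 1.47 ± 0.16 (adjusted p = 9.24e-08) and USP44, a deubiquitinase, by 0.69 ± 0.07 (adjusted p = 1.07e-08) at 24 h, after a fall of USP44 by 0.32 ± 0.07 at 12 h (adjusted p = 0.000817). Against day 10, VRTN at 24 h was at 0.083 with Dox (adjusted p = 0.708) and at -1.38 without (adjusted p = 2.1e-06).

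NODAL and Activin signalling holds human stem cells in the pluripotent state, and NODAL uses TDGF1 as a co-receptor. Of 17 genes of this pathway, 14 were tested: 2 were higher and 6 lower at 12 h, 5 higher and 4 lower at 24 h, and 6 higher and 0 lower at 48 h. The medians were -0.089, 0.10 and 0.13, against 0.0083, -0.0037 and 0.0061 over all features, of which 19.8%, 17% and 9.23% were called higher and 19.9%, 16.9% and 8.94% lower. The secreted inhibitor LEFTY2 was lower with Dox than without by 1.15 ± 0.11 at 12 h (adjusted p = 2.86e-08). Both 12 h groups were above day 10 for LEFTY2, by 0.87 with and 2.03 without doxycycline. LEFTY2 was higher with Dox than without at 24 h (0.31 ± 0.11, adjusted p = 0.0365) and at 48 h (0.50 ± 0.12, adjusted p = 0.00497). Against day 10, LEFTY2 at 48 h was at -0.031 with Dox (adjusted p = 0.839) and at -0.53 without (adjusted p = 0.00106). CER1, another secreted inhibitor, was 14.3 to 16 CPM with and 0.146 to 0.336 CPM without doxycycline at 24 h, a difference of 6.10 ± 0.32 (adjusted p = 6.22e-15). The values without doxycycline lie near the floor, since 3 reads amounted to 0.0874 to 0.137 CPM in those libraries. The size of that difference is therefore uncertain. At 48 h CER1 had 55 reads in the Dox group and 2 in the NoDox group (adjusted p = 4.95e-05), too few for a fold. SMAD3, which carries the signal to the nucleus, was higher by 0.74 ± 0.07 at 24 h (adjusted p = 6.95e-10).

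Of the 13 neural progenitor markers, 0 were higher and 12 lower with Dox than without at 12 h (median -1.13). At 24 h 4 were higher and 5 lower (median -0.16), and at 48 h 4 were higher and 0 lower (median 0.18). Their summed level was 7600 to 7680 CPM without and 7510 to 7880 CPM with doxycycline at 24 h, and 9650 to 10400 CPM without and 11300 to 11900 CPM with doxycycline at 48 h. Of the 9 mesendoderm markers 5 were tested, and 2 were higher and 1 lower at 12 h. The 6 germ cell markers tested had 0 higher and 3 lower at 12 h, 2 higher and 1 lower at 24 h, and 0 higher and 1 lower at 48 h. Of the 2 amnion and trophoblast markers tested, 1 was higher at 24 h. The shares of all features called at 12, 24 and 48 h were 19.8%, 17% and 9.23% higher and 19.9%, 16.9% and 8.94% lower.

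**Figure D4:**
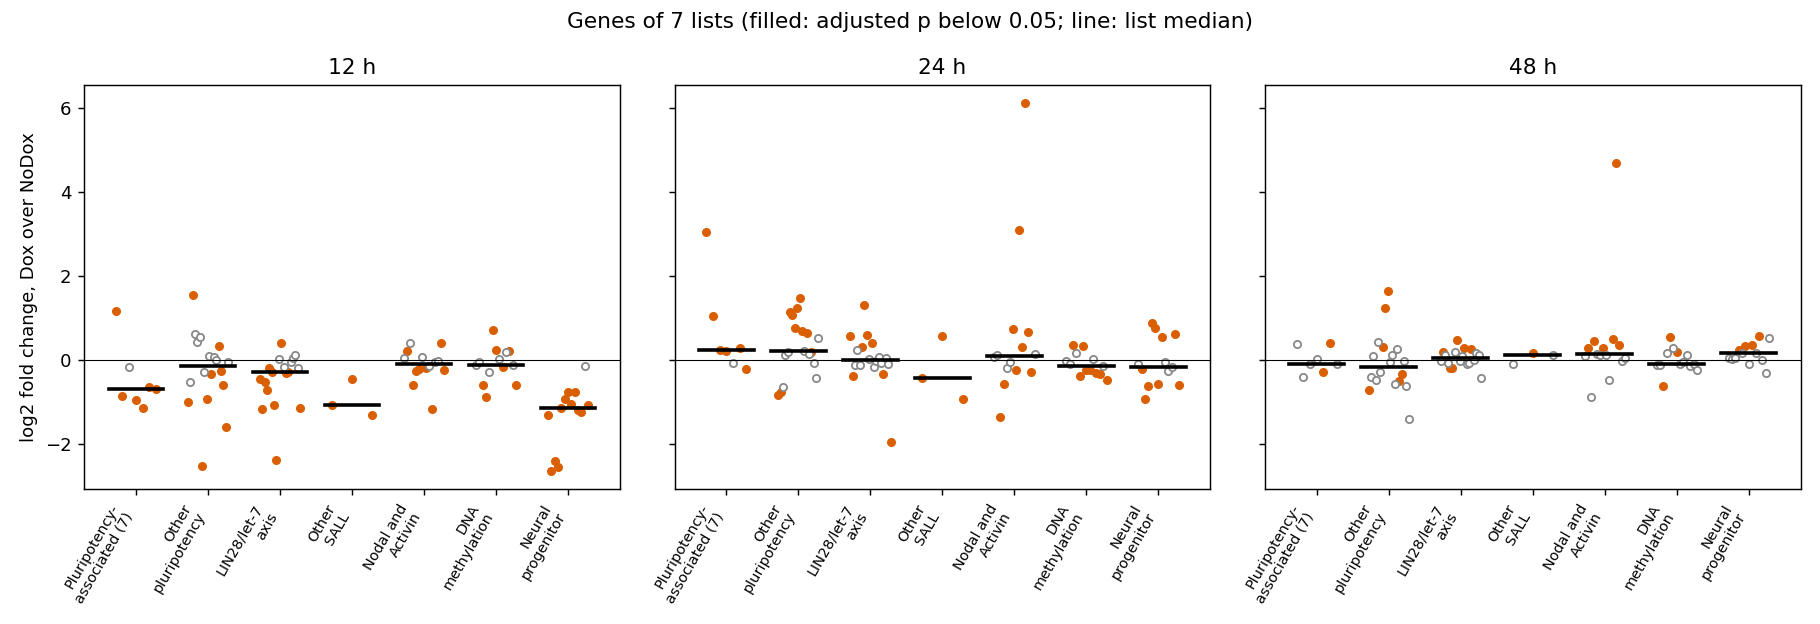
Log2 difference of Dox from NoDox for the tested genes of each list at 12, 24 and 48 h; points are genes (filled where the adjusted p was below 0.05) and lines are list medians. The neural progenitor markers have a median of -1.13 at 12 h, and the 7 pluripotency-associated genes lie on both sides of 0 at each time.

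Genes whose log2 CPM over the 21 libraries ran most like each of the 7 genes were ranked by Pearson's r among 12799 candidates outside the 10 genes. Libraries of 1 group share their condition, so r describes mainly the 7 groups. L1TD1 was most like ANXA6 (r = 0.958), BMF (0.937) and ROR2 (0.925), and ZFP42 was most like KDM1A (0.865), SALL2 (0.839) and PRSS23 (0.822). LIN28A was most like TLE4 (0.919), PRSS23 (0.914) and LBH (0.904), and LIN28B most like MYO10 (0.961), KLHDC8A (0.947) and PLCH1 (0.946). For SALL4 the leading genes were COL2A1 (0.950), CTNNBIP1 (0.931) and TP53I11 (0.931), for DPPA4 they were SOX21 (0.963), LRIG3 (0.946) and CA2 (0.946), and for DNMT3B CAMKK2 (0.969), SH3PXD2B (0.966) and RPGRIP1L (0.965). PRSS23 stood in the lists of both ZFP42 and LIN28A.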

How the data were processed

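RNA-seq was done on 21 libraries of directional, poly(A)-selected RNA. Per the submitters' processing notes, reads were aligned to hg38 with STAR 2.7.9 and counted with Subread 2.0.3, and DESeq2 was used. The sources used here give no annotation, strand setting or treatment of reads with several matches. The authors deposited a table of raw counts per gene for 61268 features, with gene lengths, and a table of normalized counts for 19874 features. The deposited normalized values are a signal that equals the raw count divided by 1 factor per library, and they were used in 1 alternative only.

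From the counts, 19655 features passed edgeR's filter by group (at least 99.87% of the counts of each library). The 7 groups entered 1 quasi-likelihood model (edgeR 4.0.16 in R 4.3.3, F test, robust, TMM scaling) with 14 residual degrees of freedom, without a replicate block. The biological coefficient of variation was 7.24%. P-values of 12 comparisons were two-sided and adjusted by Benjamini-Hochberg over all 19655 features, with a threshold of 0.05. Standard errors were derived from the log2 fold change and the F statistic. Fold changes use edgeR's prior count. Scaling by library totals instead of TMM moved the median of all features by 0.179 (log2) for Dox against NoDox at 12 h, and changes are reported relative to the TMM scale. Levels per length divide CPM by the deposited length. The 10 genes were found by symbol, and the genes and lists were chosen with earlier results of these data known. The rule for other genes took up to 4 with the smallest adjusted p of each list, others being allowed, and the 3 most like each of the 7 genes (mean CPM of at least 5, log2 CPM with a prior count of 2). Not every gene that this rule takes is reported here. Promoters came from RefSeq, 250 bases before to 50 after the start, and were matched by symbol for 6 of the 10 genes. Alternatives were DESeq2 size factors, library totals, no filter, a replicate block, DESeq2 1.42.0, limma 3.58.1 on log2 of the deposited values plus 1, only the groups compared, and each library left out. The test was checked on simulated counts.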

Additional observations from a re-analysis of the deposited data

Results flagged for a closer look

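The effect of Dox against NoDox differed between time points for several of the 7 genes that passed the filter, by an interaction test in edgeR's fit of all groups, and those results are given here together. From 12 h to 24 h the log2 effect changed by 1.90 for ZFP42, 1.87 for L1TD1, 1.16 for LIN28A, 1.05 for LIN28B, 0.92 for SALL4, 0.47 for DPPA4 and 0.40 for DNMT3B. For LIN28A, SALL4 and ZFP42 this was a change from below 0 to above 0, for L1TD1 a larger rise, and for LIN28B and DPPA4 a smaller difference from NoDox. From 24 h to 48 h it changed by -2.67 for L1TD1 and -1.46 for ZFP42. From 12 h to 48 h it changed by 1.05 for SALL4, 0.96 for LIN28A, 0.85 for LIN28B, 0.58 for DPPA4 and -0.79 for L1TD1. The transgene itself fell from 876 CPM in Dox at 12 h to 19.5 at 24 h and 0.934 at 48 h, and its part in these differences was not tested.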

How the results depend on the processing

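The 7 genes in 12 comparisons gave 84 results, and 1168 of 1218 values from the alternatives kept their direction and their side of the threshold. Scaling by library totals made the larger changes, because it moves the median of all features by up to 0.255 in size (log2, 48 h minus 12 h effect). It turned DNMT3B to 0.024 (Dox against NoDox at 12 h), 0.10 (Dox at 12 h against day 10) and -0.20 (48 h minus 12 h effect), LIN28A to -0.060 (Dox against NoDox at 48 h) and SALL4 to -0.063 (Dox at 48 h against day 10). It gave 7340 features higher and 2213 lower with Dox at 12 h (3898 and 3912 with TMM), 1017 and 2835 at 48 h (1814 and 1757), 7707 and 2850 for Dox at 12 h against day 10 (4807 and 4717), 1914 and 5719 for the 24 h minus 12 h effect (3157 and 2917), and 1700 and 6756 for the 48 h minus 12 h effect (3487 and 3277). Of the 7 genes, 2 instead of 1 were then lower at 48 h. LIN28A at 12 h without doxycycline against day 10, at -0.01, turned to 0.0046 with DESeq2 size factors, 0.0091 without the filter, 0.0051 with DESeq2 and 0.0016 with limma. At 48 h 2 of the genes instead of 1 were higher with Dox without the filter, with the replicate block, with DESeq2, with limma and with only the groups compared. Without the filter 1 gene instead of 2 was lower at 12 h without doxycycline, and with only the groups compared 4 instead of 2 had a downward change from 24 h to 48 h.

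With 1 library left out, the genes called lower in NoDox at 12 h against day 10 numbered 1 to 3, those higher with Dox at 24 h 3 to 4, and those higher and lower at 48 h 1 to 2 and 0 to 1. Over all features, NoDox at 24 h against day 10 gave 1118 to 1567 higher and 945 to 1483 lower, the lowest both without the first NoDox library, and 48 h gave 1041 to 1640 higher, the lowest without the second NoDox library. Differences from day 10 ranged from -0.064 to 0.023 for LIN28A and -0.029 to 0.14 for DNMT3B (NoDox at 12 h), and from -0.19 to 0.045 for DNMT3B (Dox at 12 h). LIN28A at 48 h ranged from -0.022 to 0.051 and the 48 h minus 12 h effect on DNMT3B from -0.072 to 0.16. The cause of these changes was not tested. In a fit with replicate number as a block, 82 of 84 results kept their call. DNMT3B at 24 h no longer passed (adjusted p = 0.0611), so that 4 genes instead of 5 were higher, and L1TD1 at 48 h passed (adjusted p = 0.0355). The deviations of same-numbered libraries correlated at -0.187 to 0.0856, and no correlation was over 0.1, so the numbers were not taken to pair the libraries. For Dox against NoDox at 24 h and 48 h and for NoDox at 12 h against day 10 each library correlated best with its own number, which is a hint from the data, not the design. Depth limits the 3 genes with 0 to 8 reads per library.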
